A study of Homo sapiens with 43 samples.

Results

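The genes described here are those of glucose breakdown and of the response to low oxygen, read in 2 human cancer cell lines and in derivatives of them. A set of 39 symbols was listed, and a gene was kept if it had a row in each of the 4 deposited tables and a mean value of at least 10 in each. That left 34 genes, out of 11565 genes that met the same limit and 18075 genes that had a row in all 4 tables. They are 14 glycolytic enzymes, 11 other targets of the hypoxia-inducible factor (HIF), 4 genes of pyruvate and lactate handling, 3 PFKFB regulators of phosphofructokinase, the glucose transporter SLC2A1 and HIF1A, the regulated subunit of HIF itself. The 5 symbols left out were PKM, CA9, SLC2A3, LDHB and ANKRD37.

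The study sequenced total RNA from H2087, a lung adenocarcinoma line, and HCC1954, a breast adenocarcinoma line, and from latency competent cancer cell (LCC) derivatives of each. Per the labels, the derivatives were isolated from organs negative by bioluminescence imaging, those of HCC1954 from mice. All cells were grown below confluence for 48 h in mitogen-low medium (MLM) or mitogen-rich medium (MRM), and the labels name no exposure to low oxygen in any group. The H2087 groups are LCC in MLM (6 libraries, 1 from each of the derivatives LCC1 to LCC6), parental in MLM (2 libraries), LCC in MRM (6 libraries, the same derivatives) and parental in MRM (2 libraries). The HCC1954 groups are LCC in MLM (4 libraries, 2 each from the derivatives LCC2 and LCC1), parental in MLM (3 libraries), LCC in MRM (4 libraries, again 2 from each derivative) and parental in MRM (3 libraries). A difference between LCC2 and LCC1 is therefore a difference between 1 derivative and 1 other, and a difference between LCC and parental HCC1954 cells rests on 2 derivatives. The labels do not tell whether replicate libraries are separate cultures. Where each arm holds 1 derivative or parental cells alone, the p-values therefore weigh a difference against library spread alone, which may be technical. In the main fits of all H2087 LCC libraries, or of both HCC1954 derivatives pooled, the spread also holds differences between derivatives. Of 43 samples in the labels, 31 are RNA and 12 are not and were not analysed here. The H2087 parental library numbered 3 in MLM was also not analysed here, which leaves 30 libraries.

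Values are read counts divided by a size factor for each library, called normalised counts below. Differences are on the scale of log2(value + 1), and calls were made with limma where the p adjusted by Benjamini and Hochberg's method over all genes tested was under 0.05. H2087 libraries held 44649263 to 55653300 reads in MLM and 12131848 to 20847987 in MRM, and HCC1954 libraries held 24852118 to 44705518. Some libraries stood apart from others of their group. HCC1954 parental library 3 in MLM gave 58.4 and 58.7 against parental libraries 1 and 2 in a chi-square over genes (divided by its degrees of freedom), and those 2 libraries gave 7.1 against each other. LCC1 libraries 1 and 2 in MRM differed from each other by 108, against 2.03 to 3.45 for the other same-derivative pairs of HCC1954. The H2087 derivatives LCC5 and LCC6 differed in MRM by only 6.68, against 24.9 to 106 for the other H2087 derivative pairs in that medium. All 5 epithelial markers were present in every group. Their summed value moved with the group in HCC1954, at 108967 to 134466 in LCC and 259803 to 284282 in parental cells in MLM, and 86327 to 161886 in LCC and 246304 to 260372 in parental cells in MRM. Alone of the 5, KRT19 went the other way in HCC1954. Its group means were 2160 in LCC and 992 in parental cells in MLM, and 1840 in LCC and 997 in parental cells in MRM. In H2087 the sums overlapped in MLM (132048 to 300871 in LCC and 125977 to 132163 in parental cells) and in MRM were 139999 to 403640 in LCC and 107485 to 119940 in parental cells, higher in LCC where in HCC1954 they were lower. The part of these shifts in the results of either line was not tested. Markers of other cell types were mixed. Of 6 fibroblast markers COL3A1, DCN and LUM were at or near 0, but COL1A1 had group means of 295 to 900, and the sum of the list in HCC1954 was 784 to 1116 in LCC and 524 to 640 in parental cells in MLM, and 778 to 1110 in LCC and 465.7 to 575 in parental cells in MRM. Of 6 blood markers HBB, HBA1 and CD3E were at or near 0, while CD68 averaged 645 to 7120 and CD14 94.7 in H2087 parental cells in MRM. Of 4 endothelial markers PECAM1 reached a group mean of 621 and CDH5 of 737 in HCC1954. The part of these in the results was not tested. In bulk RNA, fewer cells that express a gene and less of its RNA per cell cannot be told apart.

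Glycolysis splits glucose into pyruvate through a chain of enzymes that begins with the hexokinases and ends with enolase and pyruvate kinase, and lactate dehydrogenase and the monocarboxylate transporters then turn pyruvate into lactate and carry it across the membrane. When oxygen is plentiful, the prolyl hydroxylases EGLN1 and EGLN3 mark HIF1A protein for destruction, and when it is scarce the protein persists, pairs with ARNT and binds a short DNA core near most of these genes. HIF is controlled largely at the protein level, so the HIF1A transcript is not a reading of its activity.

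The core bound by HIF is written ACGTG or GCGTG, and the promoters of these genes were searched for those letters. RefSeq promoter windows on build GRCh38.p14 (250 bases before to 50 bases after a transcript start) were found for 30 of the 34 genes, with none for BNIP3L, NDRG1, PFKFB2 and SLC16A1. At least 1 of the 2 letter strings, counted on both strands so that CACGTG counts as 2, lay in a window of 27 of those 30 genes (90%). The share was 70.9% of 9464 matched genes with a mean of at least 10 in all 4 tables, and 52.4% of all 27305 genes of the promoter table. By window rather than by gene it was 65.5% of 58 windows, against 60.9% and 48.4% in the other 2 sets. Among the classes, 13 of 14 enzymes (92.9%) and 7 of 9 other HIF targets (77.8%) held one. By window these shares were 57.6% of 33 enzyme windows and 80% of 10 windows of the other HIF targets. EGLN3, P4HA2 and PGAM1 held none in any window. The upstream 250 bases are printed for 5 genes on which the HCC1954 results turn, 5′ to 3′ on the strand of the gene, with the strings in capitals; CACGT and CACGC are the same strings read on the other strand. ENO2 (chr12:6914330-6914579, plus strand) and ALDOC (chr17:28576896-28577145, minus strand) are enzymes, EGLN3 (chr14:33951075-33951324, minus strand) is a HIF target with none of the strings, and PDK1 (the second of its windows, chr2:172555840-172556089, plus strand) and PFKFB3 (chr10:6202682-6202931, plus strand, the second of its windows) govern the exit and the pace of the pathway.
ENO2: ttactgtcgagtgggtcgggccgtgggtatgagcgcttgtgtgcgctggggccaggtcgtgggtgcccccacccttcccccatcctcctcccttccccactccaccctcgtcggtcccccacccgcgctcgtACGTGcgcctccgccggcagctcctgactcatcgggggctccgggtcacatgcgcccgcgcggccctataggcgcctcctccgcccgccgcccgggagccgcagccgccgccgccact
ALDOC: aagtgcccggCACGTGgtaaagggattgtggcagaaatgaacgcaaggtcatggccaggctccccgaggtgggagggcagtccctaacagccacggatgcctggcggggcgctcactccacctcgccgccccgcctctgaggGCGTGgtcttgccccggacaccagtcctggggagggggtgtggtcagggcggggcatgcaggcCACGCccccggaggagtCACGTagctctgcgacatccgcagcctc
EGLN3: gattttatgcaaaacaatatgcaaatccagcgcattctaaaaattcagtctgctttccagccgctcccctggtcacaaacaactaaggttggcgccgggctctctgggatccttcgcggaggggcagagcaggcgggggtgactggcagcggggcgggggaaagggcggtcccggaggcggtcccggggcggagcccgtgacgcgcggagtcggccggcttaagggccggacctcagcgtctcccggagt
PDK1: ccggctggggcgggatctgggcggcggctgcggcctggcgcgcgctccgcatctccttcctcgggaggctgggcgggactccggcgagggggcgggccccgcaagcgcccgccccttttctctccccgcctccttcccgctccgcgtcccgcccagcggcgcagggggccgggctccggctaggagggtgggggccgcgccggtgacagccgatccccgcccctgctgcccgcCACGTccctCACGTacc
PFKFB3: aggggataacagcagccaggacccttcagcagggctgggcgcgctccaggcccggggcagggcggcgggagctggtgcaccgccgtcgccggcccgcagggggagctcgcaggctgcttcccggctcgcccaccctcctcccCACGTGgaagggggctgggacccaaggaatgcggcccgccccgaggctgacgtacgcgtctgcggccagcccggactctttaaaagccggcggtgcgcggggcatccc
A match is a description of the letters and not a bound site.

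The HCC1954 derivatives differed from each other across most of these genes. Over both media, 29 of the 34 genes were lower in LCC2 than in LCC1 and 2 were higher, with a median difference of −0.88 on the log2 scale, where 23.4% of all 15467 genes tested were called lower and 22.4% higher with a median of 0.004. Among the enzymes 11 of 14 were lower (median −0.80), and among the other HIF targets 10 of 11 (median −0.73). All 4 genes of pyruvate and lactate handling were lower (median −1.66). The test set 4 LCC2 libraries against 4 LCC1 libraries with medium as a covariate. Scaled to library totals instead, which moves the median of all genes to 0.15, 25 genes were called lower and 2 higher, and all genes divided 32.3% higher to 15.9% lower.

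**Figure D1:**
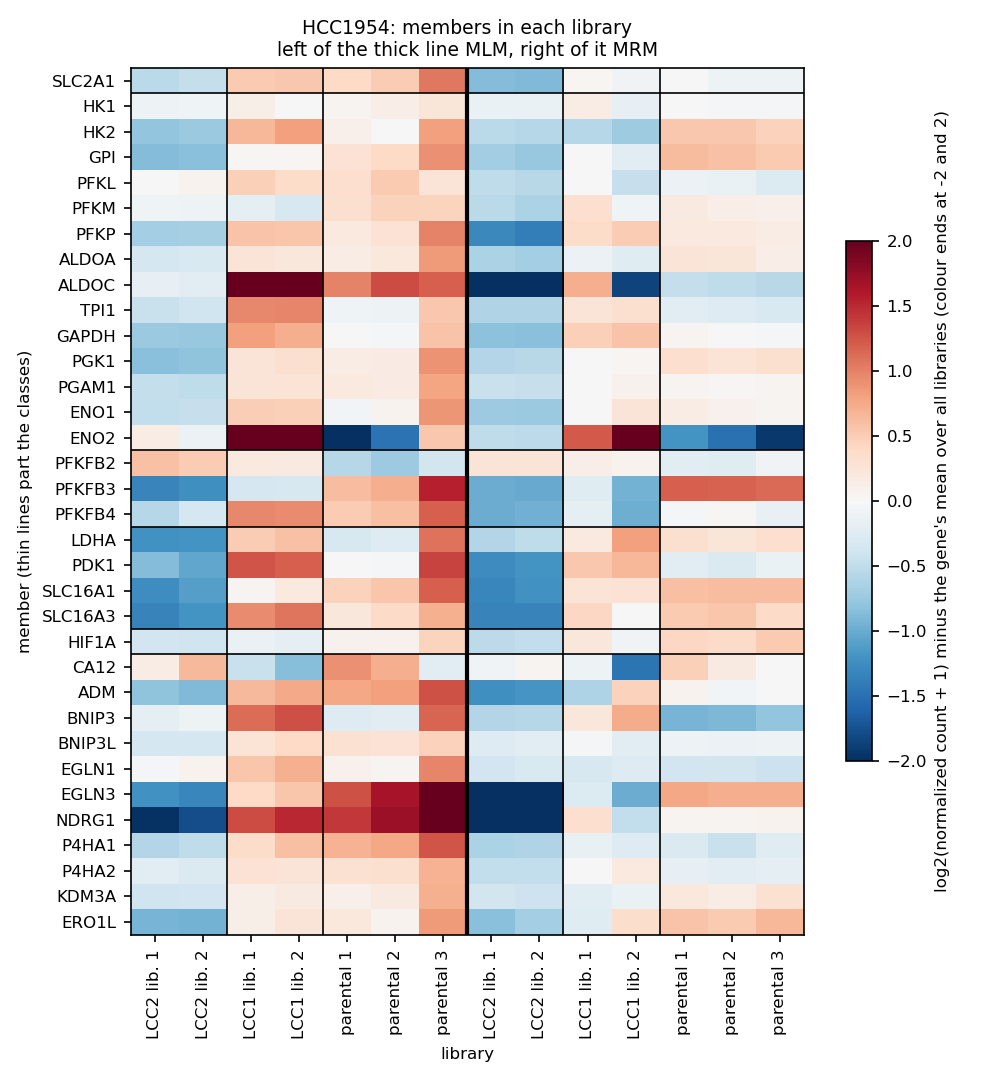
Level of each of the 34 genes in each HCC1954 library, as log2(value + 1) minus the gene's mean over all HCC1954 libraries, with libraries in columns (MLM left of the thick line, MRM right of it; LCC2, LCC1, then parental) and genes in rows by class. Colour runs from blue (lower) to red (higher) and ends at ±2. LCC2 columns are mostly blue, in both media, and parental library 3 in MLM is the reddest parental column.

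NDRG1, a stress-induced HIF target, had 367 and 422 normalised counts in the LCC2 libraries in MLM and 257 and 258 in MRM, against 3597 and 4121 in the LCC1 libraries in MLM and 1821 and 1029 in MRM. Every LCC2 library was below every LCC1 library, and the difference of −2.85 ± 0.23 (SE) was 7.2-fold (adjusted p = 0.0001198). ENO2, the enolase typical of neurons, had 58.3, 48.6, 36.65 and 36.5 in LCC2 (MLM first), against 296, 337, 125 and 330 in LCC1. The groups did not overlap, and ENO2 was 5.63-fold lower in LCC2 (log2 difference −2.49 ± 0.27, adjusted p = 0.0003665). ALDOC, an aldolase, had 449, 437, 106 and 83.2 in LCC2, against 2240, 2324, 830.2 and 138 in LCC1. Here the groups overlapped, since the second LCC1 library in MRM lay below the LCC2 libraries in MLM, and the difference was −2.10 ± 0.48 (adjusted p = 0.008645).

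Genes that handle pyruvate and lactate followed the same order. PDK1, the kinase that shuts pyruvate dehydrogenase, had 339.5, 304, 258 and 272 in LCC2, against 1493, 1421, 901 and 988 in LCC1. LCC2 was lower in every library, with a difference of −2.0 ± 0.10 (4.01-fold, adjusted p = 2.718e-05). SLC16A3, a lactate exporter, had 1179, 1295, 1171 and 1176 in LCC2, against 5724, 6214, 3965 and 2983 in LCC1, without overlap (−1.91 ± 0.16, adjusted p = 0.0001373). LDHA, the dehydrogenase that makes lactate, differed by −1.40 ± 0.17 (adjusted p = 0.0006183) and SLC16A1, a second monocarboxylate transporter, by −1.42 ± 0.08 (adjusted p = 4.542e-05).

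EGLN3, an oxygen-sensing hydroxylase that HIF itself induces, had 367, 343, 165 and 167 in LCC2, against 1129, 1249, 707 and 427 in LCC1. The libraries did not overlap and the difference was −1.73 ± 0.15 (adjusted p = 0.0001531). Its promoter is the one printed above with none of the letter strings. The other enzymes called lower in LCC2 were PFKP (−1.50), GAPDH (−1.44), TPI1 (−1.15), ENO1 (−0.91), PGK1 (−0.86), GPI (−0.75), PGAM1 (−0.63), ALDOA (−0.53) and PFKL (−0.34). The other HIF targets called lower were ADM, a vasodilator peptide (−1.34), the mitophagy receptors BNIP3 (−1.21) and BNIP3L (−0.40), the oxidase ERO1L (−0.97), the collagen hydroxylases P4HA1 (−0.73) and P4HA2 (−0.56), the histone demethylase KDM3A (−0.37) and EGLN1 (−0.33). SLC2A1, the main glucose importer, was lower, with a difference of −0.95 ± 0.06.

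Of the PFKFB genes, whose products set the level of the sugar bisphosphate that activates phosphofructokinase, PFKFB3 had 2747, 2932, 3444 and 3414 in LCC2, against 5437, 5521, 5843 and 3570 in LCC1. The LCC1 library at 3570 was the second one in MRM and lay just above LCC2, and the difference was −0.68 ± 0.17 (adjusted p = 0.01162). PFKFB4 was lower, with a difference of −0.90 ± 0.24. PFKFB2 went the other way, with 3844, 3636, 3073 and 3081 in LCC2 and 2951, 2914, 2799 and 2703 in LCC1, higher in LCC2 by 0.26 ± 0.06 (adjusted p = 0.009947) and without overlap. CA12, a carbonic anhydrase, was the other gene higher in LCC2 (0.91 ± 0.31, adjusted p = 0.04571), at 35.4, 50.6, 30.5 and 33.1 in LCC2 and 23.3, 17.3, 29.8 and 10.9 in LCC1. HIF1A had 3576, 3527, 3243 and 3303 in LCC2, against 4226, 4085, 5425 and 4437 in LCC1, a small difference without overlap (−0.41 ± 0.09, adjusted p = 0.009789). HK1, HK2 and PFKM were not called (−0.14 ± 0.08, −0.72 ± 0.29 and −0.27 ± 0.18).

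The LCC1 libraries in MRM that stood apart did not change this pattern. Without LCC1 library 1 in MRM the count was 29 lower and 2 higher, where all genes were 25.7% lower and 26.3% higher. Without library 2 it was 31 lower and 1 higher, where all genes were 28.9% lower and 26.7% higher. CA12 was then no longer called. With 2 libraries a derivative, all 34 genes were called in MLM alone and 11 in MRM alone. In MRM, ALDOC, ENO2, HIF1A, PFKFB2, PFKFB3 and CA12 were not among those 11. The share of all genes called in these 2 fits is not given here, so the counts cannot be set against it. Between libraries of 1 derivative the chi-square was 3.45 (LCC1) and 2.74 (LCC2) in MLM, and 108 (LCC1) and 2.03 (LCC2) in MRM.

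Set against the parental cells, both HCC1954 derivatives together were lower for most of these genes, but few passed the test. In MLM 30 of 34 genes lay below 0 (median −0.49), and 6 were called lower and 1 higher, where 18.9% of 15186 genes were called lower and 17.6% higher. In MRM 29 lay below 0 (median −0.45), with 10 called lower and 1 higher, against 19.3% lower and 19.2% higher among 15432 genes. Called enzymes were 0 higher and 2 lower in MLM and 0 higher and 4 lower in MRM. Called other HIF targets were 0 higher and 1 lower in MLM and 0 higher and 3 lower in MRM. The share lower in MLM is therefore close to that of all genes, and the 4 LCC libraries are 2 pairs: with 1 mean per derivative, 3 genes (PFKFB2, PFKFB3 and PFKM) were called in MLM. How many of all genes that fit called is not given here. Scaled to library totals, which moves the median of all genes to 0.11 in MLM and 0.12 in MRM, 6 genes were lower and 1 higher in MLM and 10 lower and 3 higher in MRM, while all genes divided 22.1% higher to 14% lower in MLM and 24.7% to 13.9% in MRM.

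PFKFB3, the PFKFB enzyme with the strongest kinase activity, was called lower in both media. In MLM it had 2747 and 2932 normalised counts in LCC2 and 5437 and 5521 in LCC1, against 10530, 11384 and 20175 in parental cells. In MRM it had 3444 and 3414 in LCC2 and 5843 and 3570 in LCC1, against 15851, 15655 and 15126 in parental cells. All 4 LCC libraries lay below all 3 parental libraries in both media, with a difference of −1.77 ± 0.34 in MLM (3.40-fold, adjusted p = 0.006528) and −1.97 ± 0.19 in MRM (3.93-fold, adjusted p = 0.0003958). Without parental library 3 in MLM, which holds the 20175, the difference was −1.47 (adjusted p = 0.02062).

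The genes beside PFKFB3 on the short arm of chromosome 10 were lower as well. Among the 10 RefSeq genes on each side, 2 were tested in MLM, with a median of −1.24 and both called lower, and 3 in MRM, with a median of −0.83, 2 called lower and 1 higher. Because so few were tested, the 10 nearest tested genes on each side were also taken, a choice made after the data were seen. Their median was −0.73 in MLM, with 15 of 20 below 0 and 11 called lower, and −0.77 in MRM, with 16 below 0, 11 called lower and 2 higher. Those called lower in MLM were CALML3.AS1 (−1.55), FAM208B (−0.64), GDI2 (−1.15), FBXO18 (−0.97), IL15RA (−1.64), RBM17 (−0.85), SFMBT2 (−1.61), KIN (−0.83), ATP5C1 (−1.16), TAF3 (−1.22) and GATA3 (−1.04), and the 2 higher in MRM were PRKCQ (3.19) and PRKCQ.AS1 (4.54). PFKFB3 itself stood below the median of its neighbours in both media. Of the other 33 members, the same median of 20 tested neighbours ranged from −0.90 to 0.51 in MLM and from −0.88 to 0.44 in MRM, with medians of −0.07 and −0.02. Only PFKP, an enzyme also on the short arm of chromosome 10, had a lower neighbour median than PFKFB3. The first promoter window of PFKP starts at chr10:3067720, and that of PFKFB3 at chr10:6144671. In H2087 the neighbour median of PFKFB3 was 0.10 in MLM and 0.02 in MRM. The part of the neighbouring genes in the values of PFKFB3 and PFKP was not tested.

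**Figure D2:**
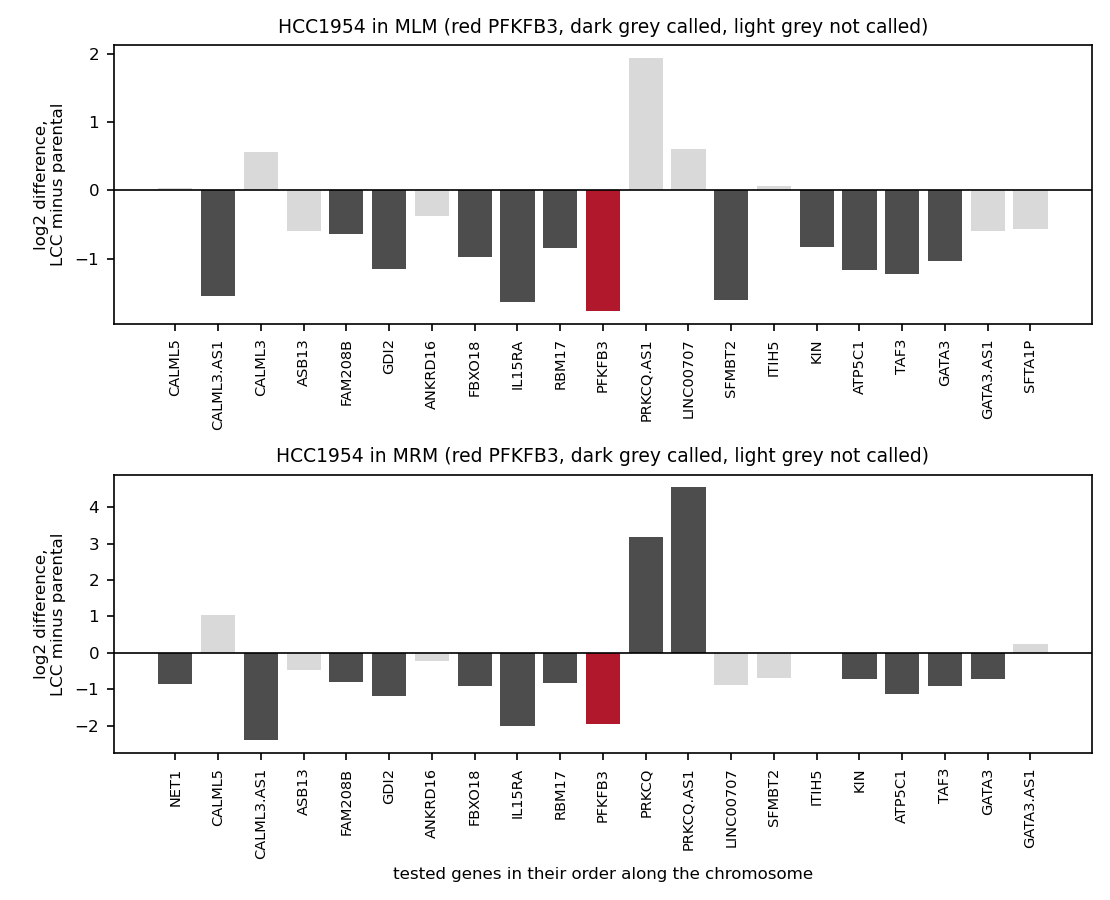
Log2 difference, LCC minus parental, of PFKFB3 (red) and of the 10 tested genes on each side of it in RefSeq gene order, in HCC1954, with dark grey for called neighbours and light grey for those not called. Most bars point down, with PRKCQ.AS1 the tallest upward bar in MRM at 4.54.

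PFKFB2, on chromosome 1, was the member called higher in LCC in both media. It had 3844 and 3636 in LCC2 and 2951 and 2914 in LCC1 in MLM, against 1733, 1557 and 1990 in parental cells. In MRM it had 3073 and 3081 in LCC2 and 2799 and 2703 in LCC1, against 2189, 2180 and 2439 in parental cells. No LCC library overlapped a parental one, and the difference was 0.92 ± 0.14 in MLM (adjusted p = 0.00236) and 0.36 ± 0.09 in MRM (adjusted p = 0.01576).

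EGLN3 was lower in LCC in both media as well. It had 367 and 343 in LCC2 and 1129 and 1249 in LCC1, against 2073, 2670 and 4496 in parental cells in MLM, and 165 and 167 in LCC2 and 707 and 427 in LCC1, against 1467, 1421 and 1414 in parental cells in MRM. The groups did not overlap, and the difference was −2.17 ± 0.54 in MLM (adjusted p = 0.01814) and −2.24 ± 0.51 in MRM (adjusted p = 0.01166). In MLM this call was lost without parental library 2 (−2.23, adjusted p = 0.05421) or 3 (−1.86, adjusted p = 0.06529). GPI, the isomerase after hexokinase, was lower, with a difference of −0.95 ± 0.29 in MLM (adjusted p = 0.03691) and −1.0 ± 0.19 in MRM (adjusted p = 0.00547), at 6920 and 7088 in LCC2 and 12816 and 12993 in LCC1, against 15478, 16654 and 23940 in parental cells in MLM. HIF1A was lower, with a difference of −0.48 ± 0.12 in MLM and −0.65 ± 0.19 in MRM (adjusted p = 0.01965 and 0.02835), at 3243 and 3303 in LCC2 and 5425 and 4437 in LCC1, against 6176, 6085 and 6649 in parental cells in MRM.

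The remaining calls were in 1 medium. HK2, the inducible hexokinase, had 2011 and 1968 in LCC2 and 1978 and 1792 in LCC1, against 4255, 4277 and 4039 in parental cells in MRM, so both derivatives lay together well below the parental cells (−1.11 ± 0.08, adjusted p = 0.0001021). In MLM it had 1691 and 1761 in LCC2 and 4662 and 5190 in LCC1, against 3139, 2909 and 5159 in parental cells, and was not called (−0.31 ± 0.46). Others called lower in MRM were ERO1L (−0.94), PFKFB4 (−0.73), ALDOA (−0.63), PGK1 (−0.58) and KDM3A (−0.50). In MLM SLC16A1 (−1.26 ± 0.40) and PFKM (−0.59 ± 0.09), the muscle phosphofructokinase, were called lower. SLC16A1 had 674.5 and 748 in LCC2 and 1667 and 1839 in LCC1, against 2199, 2350 and 3665 in parental cells in MLM.

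The calls of the pooled comparison depended on single libraries. In MLM, leaving out parental library 3 gave 3 lower (PFKFB3, PFKM and HIF1A) and 2 higher (PFKFB2 and ENO2), where all genes were 17.7% lower and 16.4% higher, and leaving out parental library 2 gave 4 calls in all. In MRM, leaving out LCC1 library 1 gave 16 lower and 1 higher, where all genes were 21.3% lower and 19.9% higher. Leaving out LCC1 library 2 gave 12 lower and 2 higher, where all genes were 24.2% in each direction, and leaving out parental library 1, 2 or 3 gave 5, 5 and 6 calls in all. For the fits described by calls in all, the share of all genes is not given here. The calls of PFKFB3 in both media, PFKFB2 and PFKM in MLM and HK2 in MRM held with each library left out in turn. The PFKFB2 call in MRM was lost without parental library 1 (0.34) or 2 (0.33), the GPI and SLC16A1 calls in MLM and the HIF1A, ERO1L and PFKFB4 calls in MRM in 5 of 7 such fits.

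Split by derivative, the difference from parental cells was broad in LCC2 and mixed in LCC1; these comparisons share the parental libraries and were added after the data were seen. In MLM 26 genes were lower and 1 higher in LCC2 (median −1.0), where 25.2% of 15070 genes were lower and 22.3% higher. In the same medium 3 were lower and 5 higher in LCC1 (median −0.10), where 25.4% of 15064 genes were lower and 23.6% higher. In MRM 29 were lower and 3 higher in LCC2 (median −0.84), where 38.2% of 15304 genes were lower and 36.7% higher, and 9 were lower and 8 higher in LCC1 (median −0.03), where 24% of 15336 genes were lower and 24.2% higher. Library-total scaling moved the median of all genes to 0.17 in MLM and 0.20 in MRM for LCC2, where 21 were then lower and 1 higher in MLM and 25 lower and 5 higher in MRM, and all genes divided 31.7% higher to 17.2% lower and 49.6% to 27.6%.

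**Figure D3:**
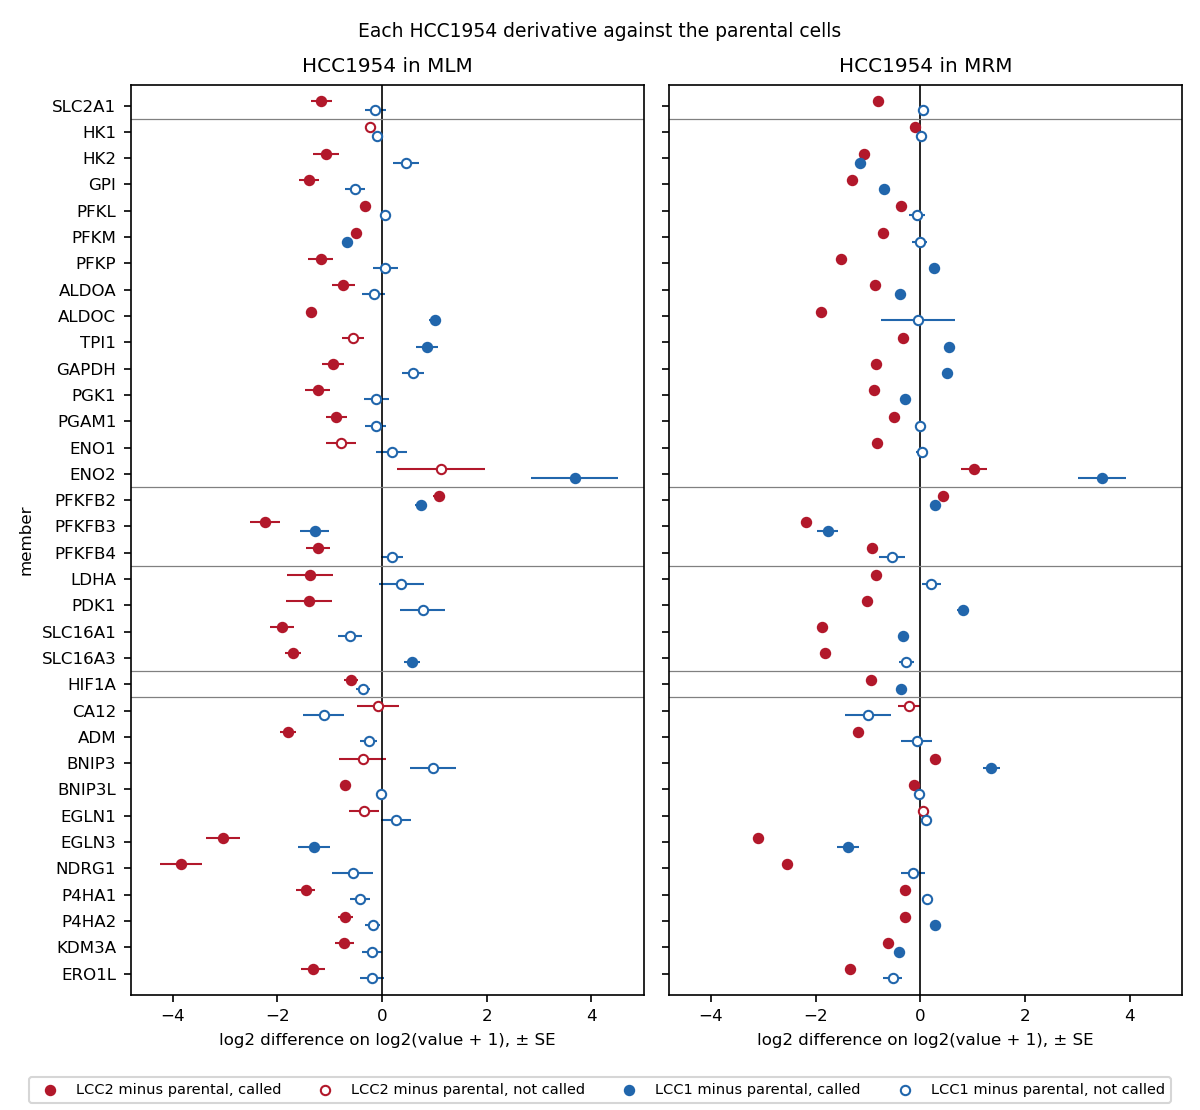
Log2 difference from parental cells (± SE) of each of the 34 genes in LCC2 (red) and LCC1 (blue), in MLM (left) and MRM (right), with filled points for called genes. LCC2 points lie left of 0 for 32 genes in MLM and 30 in MRM, while LCC1 points lie on both sides.

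In LCC2 the largest drops were in NDRG1 (−3.85 ± 0.40 in MLM and −2.55 ± 0.06 in MRM) and EGLN3 (−3.04 ± 0.32 and −3.10 ± 0.06). NDRG1 had 367 and 422 in LCC2, against 3884, 4747 and 9963 in parental cells in MLM, and 257 and 258 in LCC2, against 1511, 1501 and 1516 in parental cells in MRM. In LCC1 it was not called in either medium (−0.56 ± 0.39 and −0.14 ± 0.23). The enzymes in LCC2 were 10 lower of 14 in MLM and 13 lower with 1 higher in MRM, that one being ENO2 (1.02 ± 0.25). Pyruvate and lactate genes were lower in LCC2, all 4 of them, in both media (medians −1.55 and −1.42).

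In LCC1, 3 of 14 enzymes were higher than in parental cells and 1 lower in MLM, where all genes were 23.6% higher and 25.4% lower. In MRM 4 enzymes were higher and 4 lower, where all genes were 24.2% higher and 24% lower. ENO2 had 296 and 337 in LCC1, against 9.07, 18.2 and 76.9 in parental cells in MLM, and 125 and 330 in LCC1, against 22.4, 18.2 and 13.1 in parental cells in MRM. It was higher by 3.68 ± 0.83 and 3.47 ± 0.46 (adjusted p = 0.01384 and 0.0027), with no overlap. TPI1, the triose isomerase, was higher in both media (0.85 ± 0.21 and 0.55 ± 0.07), GAPDH in MRM (0.51 ± 0.09) and ALDOC in MLM (1.01 ± 0.11). PDK1 (0.81 ± 0.10) and BNIP3 (1.36 ± 0.16) were higher in MRM. BNIP3 had 1879 and 2686 in LCC1, against 842, 857 and 925 in parental cells in MRM. PFKFB3 (−1.29 ± 0.28 and −1.77 ± 0.20) and EGLN3 (−1.30 ± 0.31 and −1.38 ± 0.21) were lower in LCC1 in both media, and HK2 (−1.15 ± 0.08) and GPI (−0.70 ± 0.09) in MRM. PFKFB2 was higher in both derivatives and both media, by 1.09 and 0.44 in LCC2 and 0.74 and 0.28 in LCC1 (MLM before MRM).

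Without parental library 3 in MLM, LCC2 had 29 lower and 2 higher (all genes 36.4% lower and 32.8% higher). In the same setting LCC1 had 8 lower (all genes 36.1%) and 15 higher (all genes 34.5%), the higher ones including HK2, PFKP, ENO1, LDHA, PDK1 and BNIP3. A fit without 1 library of a derivative has 1 library in that arm, which is assumed to vary like the parental libraries. In MLM the share of all genes called in such fits is not given here, so their counts of called members cannot be set against it. In MRM, LCC1 had 17 lower and 11 higher without its library 1, where all genes were 36.8% lower and 34.5% higher, and 11 lower and 13 higher without its library 2, near the 35.3% lower and 34.3% higher of all genes, ALDOC (−1.34) and NDRG1 (−0.55) being lower without library 1 and higher without library 2 (1.24 and 0.27). Leaving out parental library 1, 2 or 3 in MRM gave 9, 10 and 11 calls in LCC1, for which the share of all genes is not given here.

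In parental HCC1954 cells, low mitogen went with higher values of most HIF targets. In MLM against MRM, 13 of the 34 genes were higher and 1 lower, where 25.5% of 14877 genes were higher and 20.9% lower. Other HIF targets made up 8 of the 13 (of 11, median 0.77), and enzymes 3 (of 14, median 0.24). NDRG1 had 3884, 4747 and 9963 in MLM, against 1511, 1501 and 1516 in MRM, without overlap (1.91 ± 0.31, adjusted p = 0.003191). ALDOC had 1006, 1246 and 1158 in MLM, against 361, 352 and 343 in MRM (1.68 ± 0.10, adjusted p = 9.247e-05). P4HA1, which hydroxylates collagen, had 1927, 2014 and 2846 in MLM, against 973, 865 and 998 in MRM (1.24 ± 0.15, adjusted p = 0.001078). Each of these was higher in all 3 MLM libraries.

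BNIP3 (1.09 ± 0.36), EGLN3 (1.03 ± 0.25), ADM (0.96 ± 0.13), EGLN1 (0.77 ± 0.23), P4HA2 (0.64 ± 0.11) and BNIP3L (0.46 ± 0.07) were the other HIF targets higher in MLM. BNIP3 had 1330, 1365 and 3586 in MLM, against 842, 857 and 925 in MRM, and the library at 3586 is parental library 3. Of the rest, PFKFB4 (0.81), SLC2A1 (0.73), PFKL (0.54) and PFKM (0.27) were higher, and PFKFB2 was lower (−0.37 ± 0.10), at 1733, 1557 and 1990 in MLM and 2189, 2180 and 2439 in MRM. PFKFB3 (−0.21 ± 0.23) and HIF1A (−0.23 ± 0.11) were not called.

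Parental library 3 in MLM held the highest value of its group for 30 of the 34 genes, where it was highest for 41.3% of 14685 genes. Without it 18 genes were higher and 9 lower, where all genes were 37% higher and 31.7% lower. The HIF targets were then 9 higher and 1 lower, with NDRG1 at 1.51, P4HA1 at 1.06 and BNIP3 at 0.62, and the 9 lower genes included LDHA (−0.59), PFKFB3 (−0.51), HK2 (−0.47) and HIF1A (−0.35). Without parental library 2 or 3 in MRM 9 genes were called, and the share of all genes in those fits is not given here.

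**Figure D4:**
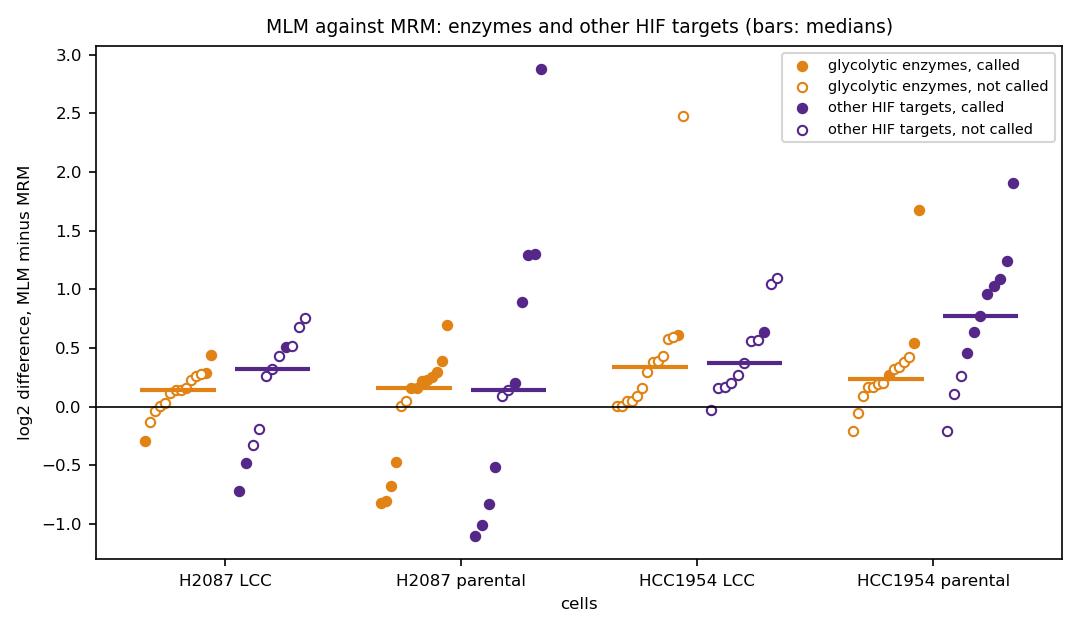
Log2 difference, MLM minus MRM, of the 14 glycolytic enzymes (orange) and the 11 other HIF targets (purple) in each of 4 cell groups, 1 point a gene, filled where called, with horizontal bars at the medians. In HCC1954 parental cells the HIF targets have a median of 0.77 and the enzymes of 0.24, and in H2087 parental cells both classes have called genes on both sides of 0.

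In the HCC1954 derivatives, few genes passed the test between media. In the pooled fit 2 genes were higher in MLM and 0 lower, where 6.36% of 15467 genes were higher and 5.52% lower. Yet all 14 enzymes (median 0.34) and 10 of 11 other HIF targets (median 0.37) lay above 0. The 2 genes called were PFKL, the liver phosphofructokinase (0.61 ± 0.16, adjusted p = 0.0422), and EGLN1 (0.64 ± 0.17, adjusted p = 0.04206). PFKL had 4475 and 4672 in LCC2 and 6186 and 5774 in LCC1 in MLM, against 3123 and 3034 in LCC2 and 4444 and 3227 in LCC1 in MRM. Libraries of the same derivative deviated together, whether or not they shared a number, so a block on derivative and number holds 4 blocks from only 2 derivatives. In that fit 11 genes were higher and 0 lower, where 15.7% of genes were higher and 12.8% lower. They were ALDOC (2.48), EGLN3 (1.10), NDRG1 (1.05), PFKFB4 (1.02), EGLN1, PFKL, BNIP3 (0.57), SLC2A1 (0.46), PDK1 (0.45), TPI1 (0.43) and ALDOA (0.38). With 1 mean per derivative limma called 0. The pooled calls rested on single libraries: limma called 0 without any 1 of LCC1 libraries 1 and 2 and LCC2 library 2 in MLM, or of LCC1 library 2 and LCC2 libraries 1 and 2 in MRM. It called 1 without LCC2 library 1 in MLM, and without LCC1 library 1 in MRM the 2 called were PFKL and ALDOC. All genes were 6.91% higher and 5.61% lower in that last fit, and 7.52% and 6.09% without LCC1 library 2 in MRM. For derivative means and the other fits without 1 library, this share is not given here.

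Whether the LCC difference itself changed with medium was tested as a difference of differences. In HCC1954 no member was called by limma or edgeR (0 higher, 0 lower), where 0.0649% of 15397 genes were called higher and 0.0909% lower. At an unadjusted p under 0.05 there were 2, PFKFB2 (0.56 ± 0.17) and P4HA1 (−0.86 ± 0.38), where 1540 of all 15397 genes passed. The block left the count of called members at 0. The larger count of calls between media in parental cells is thus not shown to be a difference from the derivatives.

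In H2087 few of these genes passed the test between LCC and parental cells, with only 2 parental libraries a medium. In MLM 1 gene was higher and 1 lower in LCC, where 4.94% of 12480 genes were higher and 8.77% lower. SLC16A1 had 4229 to 4736 in the 6 LCC libraries (median 4563), against 6420 and 6382 in parental cells. Every LCC library was lower, with a difference of −0.50 ± 0.06 (adjusted p = 0.001799). EGLN1 had 2865 to 3335 (median 3079) in LCC, against 2552 and 2524 in parental cells, and was higher by 0.28 ± 0.07 (adjusted p = 0.03877), a call lost under edgeR and under library-total scaling. The difference of PFKFB4 was larger but not called (1.21 ± 0.37, adjusted p = 0.06378), although its 550.1 to 1400 in LCC lay above the 354.5 and 381 in parental cells. SLC2A1 (0.56 ± 0.19), KDM3A (0.47 ± 0.14) and GAPDH (0.28 ± 0.12) were likewise not called without overlap, LCC being higher. The same held for TPI1, SLC16A3, P4HA2, BNIP3L and HIF1A. EGLN3 and HK1 were also not called without overlap, but with LCC lower. EGLN3 had 385.7 to 1157 in LCC, against 1212 and 1239 in parental cells, and HK1 had 5757 to 7928, against 7934 and 7947. The share of all genes without overlap is not given here.

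In MRM 2 genes were higher and 2 lower in LCC, where 8.76% of 12495 genes were higher and 5.83% lower. SLC16A3 had 9443 to 14591 (median 11860) in LCC, against 5799 and 6605 in parental cells, without overlap (0.93 ± 0.16, adjusted p = 0.008653). EGLN1 had 1861 to 2969 (median 2103) in LCC, against 1302 and 1449 in parental cells (0.65 ± 0.16, adjusted p = 0.03183). HK2 was lower at 5555 to 8784 (median 7692) in LCC, against 11138 and 10720 in parental cells (−0.58 ± 0.16, adjusted p = 0.04427), and PFKM at 4884 to 6938 (median 6588) in LCC, against 8881 and 8600 in parental cells (−0.51 ± 0.14, adjusted p = 0.04624). The groups did not overlap for either. HIF1A was not called in MLM (0.50 ± 0.20) or MRM (0.70 ± 0.21), though every LCC library lay above both parental libraries, at 16016 to 29923 in LCC and 14305 and 14247 in parental cells in MLM, and 17310 to 31938 in LCC and 13621 and 13215 in parental cells in MRM. PFKFB3 did not differ beyond its error (−0.11 ± 0.22 and 0.14 ± 0.23).

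With either parental library left out, the parental arm is 1 library, assumed to vary like the LCC libraries, and limma called 0 genes in MLM and 0 in MRM. With all libraries, in MLM limma had 10 genes at an unadjusted p under 0.05 and edgeR called 1, and in MRM 11 and 3. Of all genes, 3695 of 12480 passed that unadjusted limit in MLM and 3916 of 12495 in MRM. Without LCC2 or LCC6 in MLM 5 genes were called and without LCC5 or LCC3 1 gene, and in MRM 1 without LCC5 and 2 without LCC1 or with LCC5 and LCC6 as 1 sample. For these fits the share of all genes called is not given here.

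The H2087 derivatives were spread widely, and which one was highest changed with the medium. LCC6 held the highest value of the 6 derivatives for 26 of 34 genes in MLM, where it was highest for 25.2% of 12376 genes, and for 2 in MRM. LCC2 held the highest for 26 of 34 in MRM, where it was highest for 21.9% of 12482 genes, and for 4 in MLM, where it was lowest for 13. NDRG1 had 18159 in LCC6 and 5541 to 9406 in the other derivatives in MLM, and 10805 in LCC2 and 1823 to 7253 in the others in MRM. BNIP3 had 10756 in LCC6 and 3726 to 5912 in the others in MLM. With 1 library per derivative and medium, a derivative and its library cannot be told apart.

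**Figure D5:**
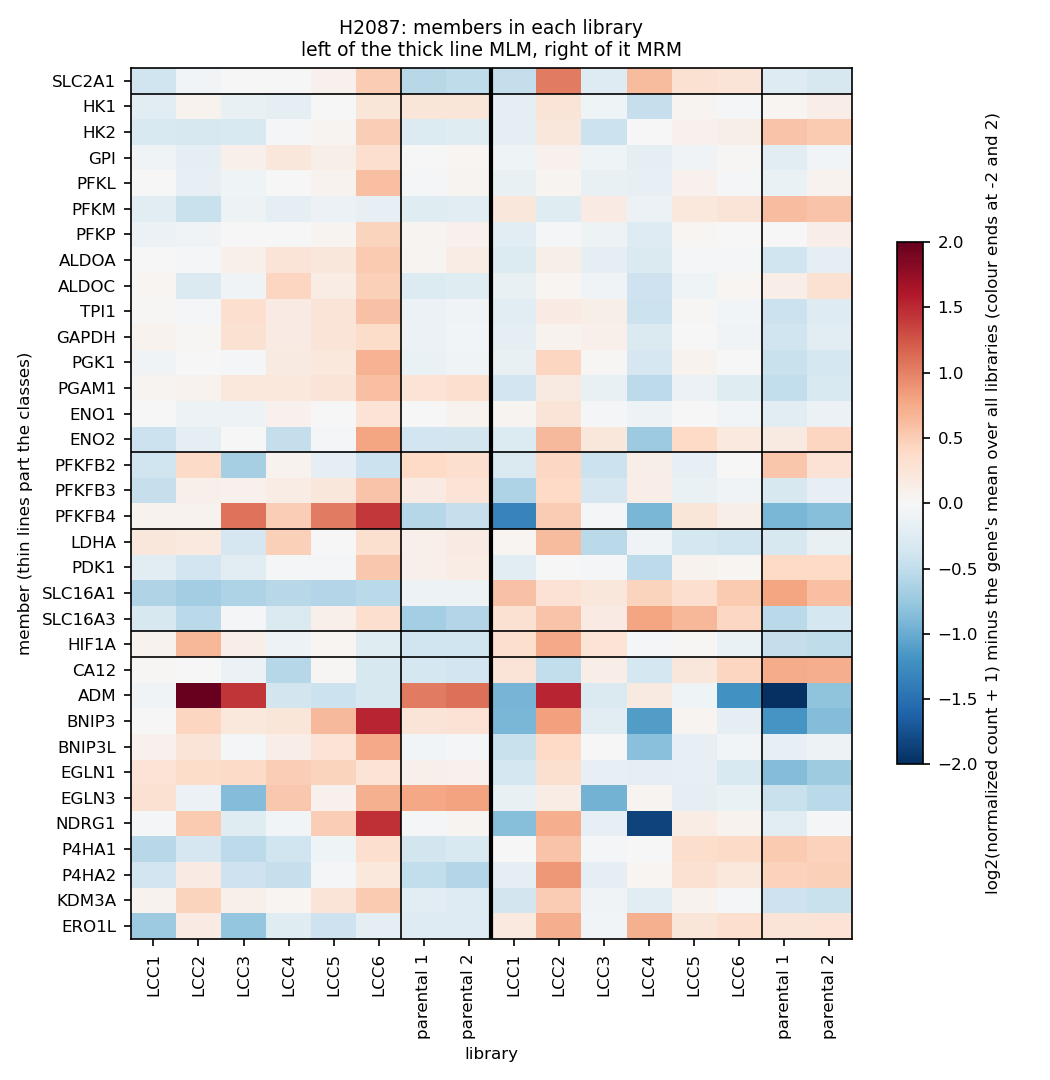
Level of each of the 34 genes in each H2087 library, as log2(value + 1) minus the gene's mean over all H2087 libraries, with libraries in columns (LCC1 to LCC6, then parental; MLM left of the thick line, MRM right of it). Colour runs from blue (lower) to red (higher) and ends at ±2. Among the LCC columns of the same medium, LCC6 in MLM and LCC2 in MRM are each highest for 26 genes.

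In H2087 parental cells, MLM and MRM differed for most genes, in both directions. Of the 34, 16 were higher and 12 lower in MLM, where 38.2% of 12524 genes were higher and 34.4% lower. Enzymes were 8 higher and 4 lower (median 0.16), and other HIF targets 5 higher and 4 lower (median 0.14). EGLN3 had 1212 and 1239 in MLM, against 517 and 484.5 in MRM (1.29 ± 0.06, adjusted p = 1.873e-06), and BNIP3 had 4490 and 4616 in MLM, against 1665 and 2061 in MRM (1.30 ± 0.09, adjusted p = 1.143e-05). EGLN1 (0.89 ± 0.06), PGAM1 (0.70 ± 0.07) and PFKFB3 (0.47 ± 0.07) were higher as well. ADM, at 36.6 and 38.1 in MLM against 1.58 and 9.45 in MRM, was called higher (2.88 ± 0.62), but the MRM libraries held 5 reads of it in all.

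The genes lower in MLM in parental H2087 cells included CA12 (−1.10 ± 0.04), P4HA2 (−1.01 ± 0.05), P4HA1 (−0.83 ± 0.05), PFKM (−0.82 ± 0.04), HK2 (−0.80 ± 0.04) and SLC16A1 (−0.79 ± 0.06). CA12 had 3951 and 3887 in MLM, against 8461 and 8392 in MRM. HK2 had 6184 and 6345 in MLM, against 11138 and 10720 in MRM. P4HA1, P4HA2 and PFKM moved the other way in HCC1954 parental cells, where each was higher in MLM; the difference between the lines was not tested.

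In the H2087 derivatives 3 genes were higher and 5 lower in MLM, where 15.9% of 12466 genes were higher and 16.7% lower. SLC16A1 had 4229 to 4736 (median 4563) in MLM, against 8051 to 10330 (median 8996) in MRM, a difference of −1.0 ± 0.06 with no overlap (adjusted p = 1.691e-06). ERO1L (−0.72 ± 0.17), SLC16A3 (−0.61 ± 0.15), P4HA1 (−0.48 ± 0.16) and PFKM (−0.29 ± 0.10) were lower, and EGLN1 (0.51 ± 0.10), PGAM1 (0.44 ± 0.12) and ALDOA (0.29 ± 0.11) higher. With 1 library left out the ALDOA call was lost in 9 of 12 fits, that of PFKM in 8 and that of P4HA1 in 7. EGLN1 had 2865 to 3335 (median 3079) in MLM, against 1861 to 2969 (median 2103) in MRM, overlapping in 1 library, LCC2 in MRM. With the derivative as a block 9 genes were higher and 6 lower, where 24.4% of genes were higher and 24.5% lower, adding PFKFB4 (0.92), BNIP3 (0.76), NDRG1 (0.68), BNIP3L (0.43), TPI1 (0.28) and KDM3A (0.26) as higher and P4HA2 (−0.33) as lower. Scaled to library totals, which moves the median of all genes to 0.11, 9 were higher and 3 lower without the block, and all genes divided 25.9% higher to 13.4% lower. Without LCC4 in MLM, LCC5 in MRM or LCC6 in MRM, or with LCC5 and LCC6 in MRM as 1 sample, 5 genes were called. How many of all genes these fits called is not given here.

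The LCC difference in H2087 was not called different between media for any member by limma or edgeR (0 higher, 0 lower), where 4.08% of 12535 genes were called higher and 6.64% lower. At an unadjusted p under 0.05 there were 4, HK2 (0.76), PFKM (0.54), ALDOC (0.70) and CA12 (0.91), where 3304 of all 12535 genes passed. With the derivative as a block 4 were higher (CA12, HK2, P4HA2 at 0.68 and PFKM) and 2 lower (ADM at −2.36 and EGLN3 at −0.97), where all genes were 11.5% higher and 15.8% lower. CA12 had 3417 to 5164 (median 4872) in LCC and 3951 and 3887 in parental cells in MLM, and 3599 to 6822 (median 5730) in LCC and 8461 and 8392 in parental cells in MRM.

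Of the symbols left out, CA9, a carbonic anhydrase used as a marker of hypoxia, had a mean of 0.589 in the H2087 MLM table and 0.845 in the MRM table. In HCC1954 it had 49.2 and 50.6 in LCC2 and 231 and 233 in LCC1, against 1.295, 6.08 and 10.4 in parental cells in MLM, and 58.5 and 75.0 in LCC2 and 199 and 38.3 in LCC1, against 7.19, 1.91 and 1.38 in parental cells in MRM. All LCC libraries were above all parental ones (4.25 ± 0.79 and 4.33 ± 0.64, adjusted p = 0.005775 and 0.001978), the opposite direction from most of the 34. PKM, the pyruvate kinase with no row in H2087, was lower in LCC2 than in LCC1 (−0.63 ± 0.09, adjusted p = 0.001221) and not called in LCC against parental cells (−0.31 ± 0.24 in MLM, −0.40 ± 0.21 in MRM). ANKRD37 was lower in LCC2 than in LCC1 (−1.44 ± 0.30) and higher in MLM in parental HCC1954 cells (1.33 ± 0.33). SLC2A3, a high-affinity glucose transporter, was lower in MLM in H2087 LCC (−0.99 ± 0.18) and parental cells (−1.46 ± 0.07). LDHB had a mean of 0 in HCC1954 in MLM.

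Other genes of these pathways came from lists of 23 HIF-linked genes, 36 further genes of glucose and pyruvate metabolism and 7 of the pentose phosphate path. Between LCC2 and LCC1, 6 of 22 tested HIF-linked genes were higher and 11 lower, where all genes were 22.4% higher and 23.4% lower. Among the lower were VEGFA, the vascular growth factor (−1.17), the hormone STC2 (−1.41) and ARNT2, a partner of the HIF alpha subunits (−2.59), while VHL, which targets HIF for destruction, was higher (0.71). Of 27 metabolic genes 8 were higher and 12 lower against the same shares, with the gluconeogenic phosphatase FBP1 lower (−1.22) and the mitochondrial pyruvate carrier subunit MPC1 higher (1.15). In LCC against parental HCC1954 cells 2 of 22 HIF-linked genes were higher and 4 lower in MLM, where all genes were 17.6% higher and 18.9% lower, and 5 higher and 5 lower in MRM, where they were 19.2% and 19.3%. These counts are near or below the shares of all genes. Of the single genes, EPAS1, the second HIF alpha subunit, was lower (−1.30 and −1.02), and RORA, a nuclear receptor (2.34 and 2.77), and LOX, which crosslinks collagen (1.93 and 1.57), were higher in MLM and MRM. Against the same shares, of 27 metabolic genes 4 were higher and 3 lower in MLM and 5 higher and 6 lower in MRM, with FBP1 higher (3.16 and 2.38) and the pyruvate transporter SLC16A7 lower (−3.18 and −2.38). Of 7 pentose phosphate genes 1 was higher and 1 lower in each medium.

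In parental HCC1954 cells 11 of 22 HIF-linked genes were higher and 2 lower in MLM (25.5% and 20.9% of all genes), with EGLN2, another HIF hydroxylase (2.40), ANGPTL4, a lipase inhibitor (2.21), and DDIT4, an inhibitor of growth signalling (1.44), among the higher ones. In parental H2087 cells 5 of 19 were higher and 12 lower in MLM (38.2% and 34.4% of all genes), with ANGPTL4 higher (4.17) and TFRC, the iron importer (−1.08), and P4HB, a protein disulphide isomerase (−1.06), lower. In the H2087 derivatives 2 of 19 were higher and 5 lower in MLM (15.9% and 16.7% of all genes). In H2087 LCC against parental cells 4 of 19 were higher and 2 lower in MLM (4.94% and 8.77% of all genes), VEGFA being higher (0.56), and 1 was higher in MRM (8.76% and 5.83%), CITED2, which competes with HIF for its coactivator (1.42).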

How the data were processed

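Total RNA of 30 libraries was analysed. Per the submitters' processing notes, Bowtie2 2.2.4, HTSeq 0.6.1p1 and DESeq2 1.8.1 were used with build hg19 (GRCh37). The deposited values are a signal, read counts that the authors divided by a size factor per library; whole reads were recovered from 100% of values within 0.01 reads, and both media tables of a line share 1 set of size factors. This scaling sets the median of genes near 0 difference.

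From these, log2(value + 1) was tested with limma 3.58.1 (trend, R 4.3.3) over genes with a mean of at least 10, with Benjamini-Hochberg adjustment over all genes tested. LCC2 was set against LCC1 over both media with medium as a covariate. Alternatives were a pseudocount of 5, no filter, library-total scaling, edgeR 4.0.16 on recovered reads, a replicate block, derivative means, LCC5 and LCC6 of MRM as 1 sample, and leaving out each library. Fits were tested on simulated data. Sequences are from RefSeq (GRCh38.p14), and gene order is from RefSeq.

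Same-named LCC libraries of the 2 media deviated together (r of 0.416 to 0.762 in H2087 and 0.506 to 0.697 in HCC1954), so they were paired by derivative name. In H2087 the names LCC5 and LCC6 were less distinct. LCC6 in MLM gave 0.410 with LCC5 in MRM, beside 0.416 with LCC6. LCC5 in MLM gave 0.495 with LCC6 in MRM, beside 0.669 with LCC5. In HCC1954 differently numbered libraries of a derivative correlated as well (0.495 to 0.690), so the number itself pairs nothing there. Parental numbers (0.071 in H2087, 0.012 to 0.146 in HCC1954) and LCC against parental numbers (−0.293 to 0.285) were not taken as pairs. The members and lists were chosen with earlier results of these data known. Every member is named, with values per library for up to 6 called members per direction with the largest difference, and for PFKFB3 and HIF1A; other pathway genes are up to 3 called per direction.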

Additional observations from a re-analysis of the deposited data

Results flagged for a closer look

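The values of 1 gene in 1 group of 4 to 10 libraries were taken as a set. In 19 of 136 such sets, 1 library lay far from the others by Dixon's test on normalised counts. Chance would flag about 1 in 20 sets of like libraries, but these groups mix derivatives, and genes of 1 library are not independent. Of the 19 flags, 9 were high values of the H2087 derivative LCC6 in MLM. BNIP3 had 10756 there (3726 to 5912 in the other 5 derivatives), BNIP3L 2448 (1399 to 1744), ENO2 3346 (1394 to 1941), and NDRG1 18159 (5541 to 9406). PDK1 had 1583 (839 to 1073), PFKL 5317 (3127 to 3672), PFKP 16412 (11126 to 12552), PGAM1 24610 (16767 to 19404) and PGK1 34526 (20398 to 24638). In the same medium LCC2 had the highest HIF1A value, 29923 (16016 to 20785), and the lowest PFKM value, 4256 (4976 to 5375). In MRM LCC2 stood above the others for ADM at 51.4 (6.84 to 19.5) and EGLN1 at 2969 (1861 to 2125).

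In HCC1954 LCC cells in MRM, the first LCC1 library was high for 5 genes. ALDOC had 830.2 there (83.2 to 138 in the other 3 libraries), HK1 5641 (4565 to 4662), PFKFB3 5843 (3414 to 3570), PFKFB4 476 (272 to 278) and PFKL 4444 (3034 to 3227). The second LCC1 library was low for CA12, at 10.9 (29.8 to 33.1).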

How the results depend on the processing

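Over 574 values recomputed under other settings, 528 kept their direction and side of the threshold, 44 lost it, 1 gained it and 1 reversed; over 783 with 1 library left out, the counts were 639, 131, 7 and 6. Counts below are members called, without the share of all genes called in the same fits. In H2087 LCC against parental cells in MLM (2), library-total scaling and edgeR each gave 1, and in MRM (4) no filter and LCC5 with LCC6 as 1 sample each gave 2. In HCC1954 LCC against parental cells, derivative means gave 3 in MLM (7). With the replicate block by derivative (in HCC1954, 4 blocks from 2 derivatives), counts were 15 in H2087 LCC between media (8), 11 in HCC1954 LCC between media (2) and 6 for the H2087 difference of differences (0). A replicate block on numbers shared by HCC1954 LCC and parental cells, which do not pair, gave 3 in MLM and 2 in MRM (11). LCC5 with LCC6 as 1 gave 5 between media in H2087 LCC; no filter and derivative means gave 0 between media in HCC1954 LCC. LCC2 against LCC1 (31) had 11 in MRM alone, an alternative added after seeing the data, as were the fits of each derivative against parental cells and the window of 10 tested neighbours. The median of genes beside PFKFB3 in HCC1954 LCC against parental cells in MLM (−1.24) was −0.85 over 5 genes on each side, −0.75 over 20 and −0.73 over 10 tested genes. Leaving out 1 library gave counts of 0 to 5 in MLM and 0 to 6 in MRM for H2087 LCC against parental cells, 4 to 8 and 5 to 17 for HCC1954, 5 to 11 and 19 to 32 between media in H2087 LCC and parental cells, 0 to 2 and 9 to 27 in HCC1954, 0 to 2 and 0 to 0 for the differences of differences, and 26 to 32 for LCC2 against LCC1. For LCC1 against parental cells it gave 3 to 23 in MLM and 9 to 28 in MRM, and for LCC2 11 to 31 and 30 to 32. Differences near 0 that reversed were PFKFB3 in H2087 LCC against parental cells in MLM (−0.20 to 0.00 with 1 library left out, 0.00 without LCC1), HIF1A in H2087 LCC between media (−0.22 to 0.00, the upper end without LCC2 in MRM), PFKFB3 in HCC1954 LCC between media under edgeR (0.02) and, in a range of −0.17 to 0.18, without LCC2 library 1 or 2 in MLM (0.17, 0.14) or LCC1 library 1 in MRM (0.18), and HIF1A there without that last library (−0.16 to 0.08). The cause of these shifts was not tested, other than fewer samples. H2087 has 2 parental libraries per medium and each HCC1954 derivative 2 libraries per medium, so single-medium fits without 1 of such a pair have an arm of 1 library, assumed to vary like the rest; H2087 libraries were shallower in MRM, and the part of depth was not tested.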
